A study of Mus musculus with 8 samples.

Results

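The genes examined here encode the enzymes of glycolysis, the enzymes and kinases that control the entry of pyruvate into mitochondria, the enzymes of the tricarboxylic acid (TCA) cycle with their isoenzymes, and part of the response to low oxygen. Members were taken from a list of 43 gene symbols. Array probes were assigned to them by the platform annotation, with symbols updated to RefSeq through the Entrez identifier. The measured probe with the highest mean gives a gene's value unless other probes are named. Of the 43 genes, 40 had a probe (61 probes in all), and 38 were measured, out of 9545 genes measured on the arrays. A gene counted as measured if a probe of it gave a signal above the negative control beads (detection p under 0.05) on at least 2 of the 8 arrays. The 38 were 13 of 17 glycolytic genes, 6 of 6 genes of pyruvate entry, 13 of 13 genes of the TCA cycle and 6 of 7 genes of the hypoxia response. Pgk1 and Bnip3 had a probe that was detected on no array. Gpi1, Eno1 and Ldhb were not analysed here.

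The study compared populations of basal keratinocytes, the epithelial cells of the skin that rest on the basement membrane, from the back skin of adult mice in telogen, the resting phase of the hair cycle. All mice carried the Gli1-eGFP/+ reporter, in which green fluorescent protein marks cells that express Gli1, a transcription factor and target of Hedgehog signalling, and were on an outcrossed Swiss Webster background. Viable single cells stained for α6 integrin were sorted on GFP and CD34 into Gli1+ cells (with GFP, 2 arrays), CD34+ cells (without GFP and with CD34, 3 arrays) and IFE cells (without either, labelled as mostly interfollicular epidermis and infundibulum, 3 arrays). CD34 on mouse keratinocytes marks stem cells of the hair follicle bulge. Each sample pooled 2 mice, so the tests below measure the spread between pools, and Gli1+ replicate 1 was not hybridised because its RNA was of insufficient quality. The Gli1+ gate did not use CD34, and the IFE gate rests on the absence of both markers.

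Values are log2 intensities after background correction and quantile normalisation, and a member with several probes is given by the probe with the highest mean. The Gli1 probe read 8.82 and 8.36 on the Gli1+ arrays, between 7.06 and 8.42 in CD34+ cells, and between 5.01 and 5.32 in IFE cells. The Cd34 probe read 8.18 and 8.47 on the Gli1+ arrays, between 8.50 and 8.86 in CD34+ cells, and between 5.44 and 6.31 in IFE cells. Gli1+ and CD34+ arrays overlapped on the Gli1 probe. Neither probe differed between these groups at an adjusted p under 0.05 in limma (0.258 for Gli1 and 0.665 for Cd34). Krt5 and Krt14, the keratins of basal keratinocytes, were high on all 8 arrays. The Gli1+ arrays stood apart from the rest: across genes their correlation with each other was 0.82, where CD34+ arrays gave 0.933 or more and IFE arrays 0.943 or more. Of the 38 members, 32 and 31 were detected on the Gli1+ arrays, between 35 and 37 in CD34+ cells and 33 or 34 in IFE cells.

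Glycolysis splits glucose into pyruvate in the cytosol, and lactate dehydrogenase can turn that pyruvate into lactate. The pyruvate dehydrogenase complex instead converts it to acetyl-CoA for the TCA cycle in mitochondria, and pyruvate dehydrogenase kinases (the Pdk genes) phosphorylate the complex and switch it off. When oxygen is low, the factor HIF-1α is no longer hydroxylated and degraded, and it then activates many glycolytic genes, Pdk1 and the angiogenic growth factor Vegfa. Adult hair follicle stem cells in mouse skin are known for active glycolysis and for a dependence of their activation on lactate production.

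The differences that passed the test lay in 3 of the 38 genes, which belonged to pyruvate entry and the hypoxia response. Pdk2 was higher in Gli1+ and in CD34+ cells than in IFE cells, Pdk4 was lower in both, and Vegfa was lower in CD34+ than in IFE cells. With limma (adjusted p under 0.05 over all 9545 genes), 2 of the 38 members passed in Gli1+ against IFE cells, where 2.16% of all genes passed (1.30% higher and 0.859% lower). In CD34+ against IFE cells 3 of 38 passed, where 4.80% of all genes passed (2.94% higher and 1.85% lower). In Gli1+ against CD34+ cells 0 of 38 passed, where 1.42% of all genes passed (0.576% higher and 0.849% lower), and 6 members had an unadjusted p under 0.05 in limma, as 17.5% of all genes did. Counts this small say little about the list as a whole. Both comparisons with IFE cells share the 3 IFE arrays. Same-numbered samples came from the same mice, and with the replicate number as a block 1 member, Pdk2, passed in each comparison with IFE cells, while 0 passed in Gli1+ against CD34+ cells. In RNA from sorted populations, fewer cells that express a gene and less RNA of it per cell cannot be told apart.

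The promoters of these 3 genes are shown because HIF-1 binds the core letters ACGTG or GCGTG. Each sequence gives the 250 bases before the most upstream RefSeq transcription start (RefSeq, GRCm38.p6) on the gene's own strand, 5′ to 3′, with matches to the core on either strand in capitals. All 3 genes lie on the minus strand, at chr11:95041372-95041621 for Pdk2, chr6:5496279-5496528 for Pdk4 and chr17:46032378-46032627 for Vegfa.
Pdk2: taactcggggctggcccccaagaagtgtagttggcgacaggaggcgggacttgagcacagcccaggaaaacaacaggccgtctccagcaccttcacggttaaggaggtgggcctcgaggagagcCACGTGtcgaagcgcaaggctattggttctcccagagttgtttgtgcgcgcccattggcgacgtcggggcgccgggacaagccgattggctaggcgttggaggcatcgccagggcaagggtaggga
Pdk4: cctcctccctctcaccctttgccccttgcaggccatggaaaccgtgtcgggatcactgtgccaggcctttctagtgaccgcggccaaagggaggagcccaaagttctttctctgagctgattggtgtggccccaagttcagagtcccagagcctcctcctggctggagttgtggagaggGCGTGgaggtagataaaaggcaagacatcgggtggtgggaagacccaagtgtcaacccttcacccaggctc
Vegfa: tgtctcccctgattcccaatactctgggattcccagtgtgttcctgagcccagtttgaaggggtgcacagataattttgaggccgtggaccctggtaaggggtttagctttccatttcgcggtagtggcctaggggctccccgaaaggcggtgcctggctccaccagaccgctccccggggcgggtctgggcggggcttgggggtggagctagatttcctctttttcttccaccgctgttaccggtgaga
In Pdk2 the capitals are the palindrome CACGTG, which holds ACGTG on both strands as 2 overlapping matches. Pdk4 held 1 match, GCGTG, and Vegfa held 0 in this window. Across the members with a promoter in the table, 25 of 36 (69.4%) held a match, against 4372 of 7762 promoters of measured genes (56.3%) and 10442 of 27025 promoters in all (38.6%). A match of 5 letters describes the sequence and does not show that a factor binds there.

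Pyruvate entry held called differences in opposite directions for different kinases. Pdk2, a widely expressed pyruvate dehydrogenase kinase, read 9.01 and 9.21 on the Gli1+ arrays, 8.93, 8.77 and 8.56 on the CD34+ arrays and 7.26, 6.87 and 6.32 on the IFE arrays. Every Gli1+ and CD34+ array lay above every IFE array, and the IFE arrays spread the most. Pdk2 was 4.89-fold higher in Gli1+ than in IFE cells (log2 difference 2.29 ± 0.34 SE, limma adjusted p = 0.0129). It was 3.83-fold higher in CD34+ than in IFE cells (1.94 ± 0.31, limma adjusted p = 0.00645). The Gli1+ and CD34+ means differed by 0.35 ± 0.34 (limma adjusted p = 0.635, 95% interval -0.41 to 1.12). The intensities before correction ran the same way, with 732 and 638 on the Gli1+ arrays, 632, 484 and 534 on the CD34+ arrays and 214, 196 and 179 on the IFE arrays. The Gli1+ call was lost without IFE replicate 2 (limma adjusted p = 0.0563) or IFE replicate 3 (0.0583), with only Gli1+ and IFE arrays fitted (0.0735) and with array weights (0.105), while the CD34+ call passed in all 19 alternatives.

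Pdk4, the kinase that fasting induces in muscle and liver, read 4.93 and 4.94 on the Gli1+ arrays, 6.06, 5.05 and 6.35 on the CD34+ arrays and 7.93, 7.79 and 6.86 on the IFE arrays. All IFE arrays lay above all others, and the probe was not detected on either Gli1+ array or on CD34+ replicate 2. Pdk4 was at least 4.16-fold lower in Gli1+ than in IFE cells, a bound set by the detection limit of the Gli1+ arrays (fitted log2 difference -2.59 ± 0.46, limma adjusted p = 0.0246). It was 3.26-fold lower in CD34+ than in IFE cells (-1.70 ± 0.41, limma adjusted p = 0.0438). Between Gli1+ and CD34+ cells only a bound was measured, at least 1.28-fold lower in Gli1+ cells, and the comparison did not pass (limma adjusted p = 0.353). With the replicate number as a block, neither call on Pdk4 passed (limma adjusted p = 0.082 for Gli1+ and 0.0779 for CD34+ against IFE cells). The Gli1+ call was also lost without IFE replicate 1 (0.0989) or IFE replicate 2 (0.0947) and with array weights (0.194). Fitting only Gli1+ and IFE arrays (0.071), the deposited log2 values (0.0585) and no detection filter (0.0572) removed it too. The CD34+ call was lost without any one of the 6 arrays compared (0.0508 to 0.174), with median centring (0.0896) or with cyclic loess (0.0631). It was also lost with the deposited log2 values (0.108) or no detection filter (0.0944). Over the 19 alternatives the Gli1+ call passed in 12 and the CD34+ call in 8.

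Pdk1, the kinase that HIF-1 activates, passed in no comparison. It read 6.66 and 7.09 on the Gli1+ arrays, 6.72, 6.29 and 6.61 on the CD34+ arrays and 6.61, 7.38 and 6.78 on the IFE arrays, and Gli1+ and IFE arrays overlapped. Its log2 differences were -0.05 for Gli1+ against IFE, -0.39 for CD34+ against IFE and 0.34 for Gli1+ against CD34+ cells (limma adjusted p = 0.962, 0.604 and 0.647). The subunits of the pyruvate dehydrogenase complex that were measured, Pdha1, Pdhb and Dlat, passed in no comparison. Pdhb, the β subunit of its first enzyme, read 9.40 and 8.21 on the Gli1+ arrays, 7.83, 8.54 and 7.35 on the CD34+ arrays and 8.37, 7.92 and 8.34 on the IFE arrays. Its Gli1+ minus CD34+ difference was 0.89 on this probe and -0.03 on its other probe. Pdha1, the α subunit that the kinases phosphorylate, read 8.44 and 7.76 on the Gli1+ arrays, 9.10, 9.32 and 8.44 on the CD34+ arrays and 8.44, 8.94 and 9.07 on the IFE arrays (Gli1+ minus CD34+ -0.85, limma adjusted p = 0.287).

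**Figure D1:**
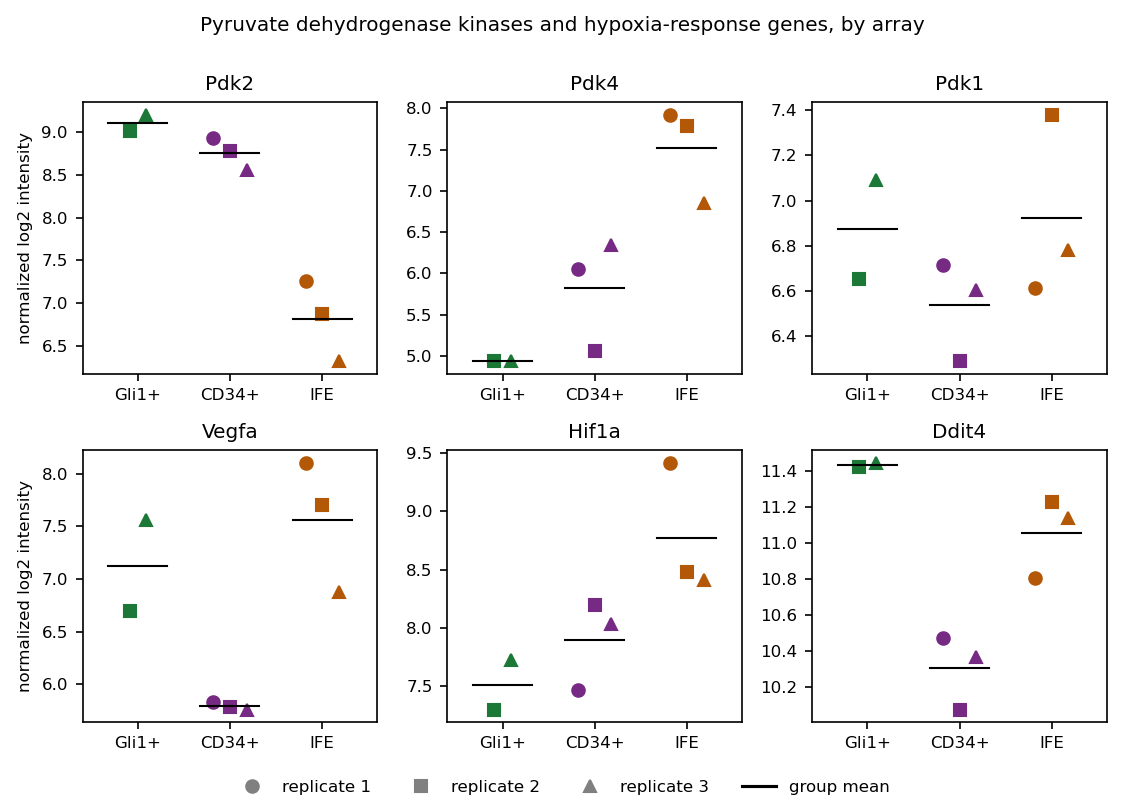
Normalised log2 intensity of Pdk2, Pdk4, Pdk1, Vegfa, Hif1a and Ddit4 on each array, with a log2 axis of its own in each panel and Gli1+ (2 arrays), CD34+ (3) and IFE (3) from left to right; points are arrays, with a shape for each replicate number, and bars are group means. Pdk2 lies at 9.01 and 9.21 on the Gli1+ arrays, above all IFE arrays (6.32 to 7.26), and Pdk4 runs the other way.

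Among the hypoxia genes, Vegfa was the 1 member to pass, and only in CD34+ against IFE cells. Of the 6 measured, 0 passed in Gli1+ against IFE cells, 1 fell in CD34+ against IFE cells and 0 passed in Gli1+ against CD34+ cells. At an unadjusted p under 0.05 in limma the counts were 1, 3 and 2 of 6 in that order, where 17.6%, 16.9% and 17.5% of all genes lay under it. Vegfa, the growth factor that keratinocytes secrete to attract blood vessels, read 6.69 and 7.56 on the Gli1+ arrays, 5.84, 5.79 and 5.76 on the CD34+ arrays and 8.11, 7.71 and 6.87 on the IFE arrays. The CD34+ arrays lay close together below every other array, while Gli1+ and IFE arrays overlapped. Vegfa was 3.40-fold lower in CD34+ than in IFE cells (-1.77 ± 0.37, limma adjusted p = 0.0256). The Gli1+ minus IFE difference was -0.43 ± 0.41 (limma adjusted p = 0.639), and Gli1+ minus CD34+ was 1.33 ± 0.41 (limma adjusted p = 0.139). The CD34+ call was lost with the replicate number as a block (limma adjusted p = 0.0518) and without any one of 5 arrays: CD34+ replicates 1, 2 and 3 (0.0801, 0.0901 and 0.0879) and IFE replicates 1 and 2 (0.107 and 0.0989). The deposited log2 values (0.0502) and no detection filter (0.0522) also removed the call. It passed in 11 of 19 alternatives.

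Vegfa had 3 measured probes, detected on 8, 5 and 2 of the 8 arrays. The CD34+ minus IFE difference was -1.77, -1.67 and -0.80 on the 3 probes, with limma adjusted p over all probes of 0.0278, 0.0595 and 0.215. The Gli1+ minus IFE difference was -0.43 on the brightest probe and -1.35 and -0.67 on the others, where the Gli1+ arrays did not overlap the IFE arrays. All 3 probes had CD34+ cells below IFE cells, and the Gli1+ minus CD34+ difference lay between 0.13 and 1.33. The summed level of 5 markers of suprabasal keratinocytes, the differentiating cells above the basal layer, was between 11313 and 15998 in Gli1+ cells, between 5415 and 7860 in CD34+ cells, and between 6619 and 10787 in IFE cells, with none past the threshold, and its part in the Vegfa values was not tested.

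**Figure D2:**
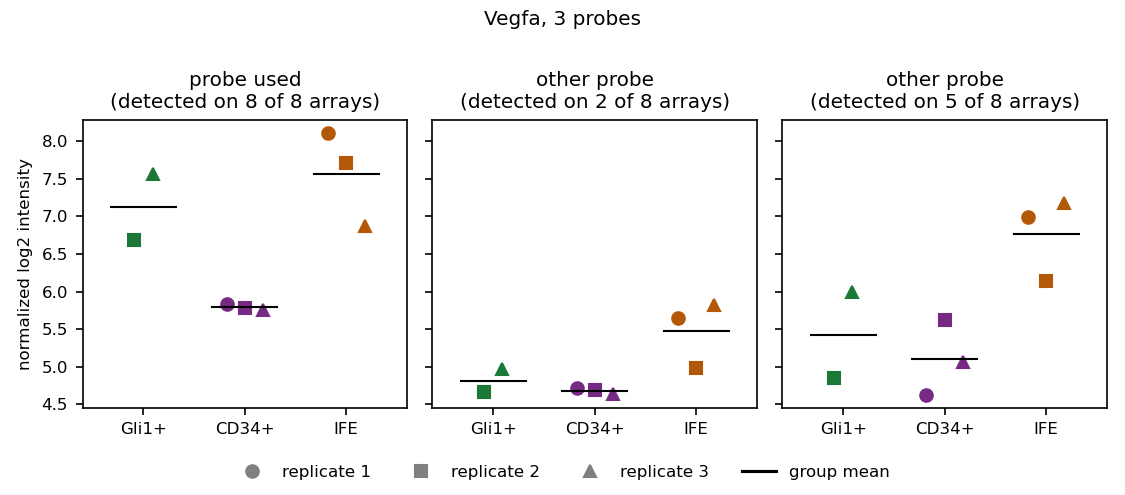
Log2 intensity on the 3 measured Vegfa probes by array, with Gli1+, CD34+ and IFE arrays from left to right in each panel and bars at the group means. On the probe used, the CD34+ arrays sit at 5.76 to 5.84 below every Gli1+ and IFE array.

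Hif1a, which encodes the oxygen-regulated subunit of HIF-1, read 7.30 and 7.73 on the Gli1+ arrays, 7.47, 8.19 and 8.03 on the CD34+ arrays and 9.42, 8.48 and 8.41 on the IFE arrays. Every IFE array was above every other array, but the differences did not pass (Gli1+ minus IFE -1.26 ± 0.40, limma adjusted p = 0.14; CD34+ minus IFE -0.87 ± 0.36, 0.241). Ddit4, an inhibitor of mTORC1 signalling that stress and hypoxia induce, read 11.42 and 11.44 on the Gli1+ arrays, 10.47, 10.08 and 10.37 on the CD34+ arrays and 10.81, 11.23 and 11.14 on the IFE arrays. The groups did not overlap, with CD34+ cells lowest, and no difference passed (Gli1+ minus CD34+ 1.13 ± 0.30, limma adjusted p = 0.0913). Egln3, a prolyl hydroxylase that marks HIF-1α for degradation, read 8.45 and 7.90 on the Gli1+ arrays, 8.73, 7.29 and 5.61 on the CD34+ arrays and 8.50, 8.70 and 8.17 on the IFE arrays. Its CD34+ arrays spanned more than 3 log2 units, and its residual SD of 1.02 was at the 97.2 percentile of all genes. Dissociation stress genes had a summed level between 10134 and 10752 in Gli1+ cells, between 8991 and 11487 in CD34+ cells, and between 10622 and 12543 in IFE cells, with none past the threshold.

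No glycolytic member of the list passed the test: 0 of 13 members passed in each of the 3 comparisons. At an unadjusted p under 0.05 in limma there were 1, 1 and 2 members for Gli1+ against IFE, CD34+ against IFE and Gli1+ against CD34+ cells (17.6%, 16.9% and 17.5% of all genes). The differences ran from -1.03 to 0.95 for Gli1+ minus IFE, -0.85 to 0.79 for CD34+ minus IFE and -1.44 to 0.58 for Gli1+ minus CD34+. Gapdh, which makes 1,3-bisphosphoglycerate, read 8.58 and 9.12 on the Gli1+ arrays, 8.78, 8.68 and 8.85 on the CD34+ arrays and 9.04, 8.90 and 9.03 on the IFE arrays. Its Gli1+ minus IFE difference of -0.14 had a 95% interval of -0.80 to 0.52, and its CD34+ minus IFE difference of -0.22 had one of -0.80 to 0.37.

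Ldha, which makes lactate from pyruvate, read 9.59 and 9.85 on the Gli1+ arrays, 9.24, 9.54 and 9.39 on the CD34+ arrays and 10.06, 9.90 and 9.62 on the IFE arrays. The CD34+ arrays lay below the IFE arrays, by 0.47 log2 units on average, without passing the test. Hk1, the broadly expressed hexokinase, read 5.30 and 5.28 on the Gli1+ arrays, where its probe was not detected, 6.24, 6.83 and 7.13 on the CD34+ arrays and 6.14, 6.12 and 5.58 on the IFE arrays. Its values did not overlap between Gli1+ and CD34+ cells, with a fitted difference of -1.44 ± 0.35 and a bound of at least 2.40-fold lower (limma adjusted p = 0.0788). Hk2, the inducible hexokinase, read 10.59 and 10.05 on the Gli1+ arrays, 10.72, 9.77 and 9.83 on the CD34+ arrays and 10.18, 8.84 and 9.09 on the IFE arrays, and IFE replicate 1 overlapped the other groups.

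The phosphofructokinases commit fructose 6-phosphate to glycolysis. Pfkl read 6.20 and 6.41 on the Gli1+ arrays, 5.99, 6.79 and 6.68 on the CD34+ arrays and 6.69, 8.02 and 7.30 on the IFE arrays. On this probe Gli1+ arrays lay below IFE arrays (-1.03 ± 0.42, limma adjusted p = 0.238). On the other measured Pfkl probe, detected on 2 arrays, the difference was -0.19 and the Gli1+ and IFE arrays overlapped. Pfkp read 8.28 and 9.16 on the Gli1+ arrays, 8.43, 8.68 and 9.49 on the CD34+ arrays and 9.65, 9.08 and 9.45 on the IFE arrays, and the groups overlapped. The other glycolytic members measured, Pfkm, Aldoa, Aldoc, Tpi1, Pgam1, Pkm and Pfkfb3, had no call in any comparison.

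The TCA cycle genes likewise had 0 of 13 past the threshold in each comparison, with 1, 2 and 2 at an unadjusted p under 0.05 in limma in the same order of comparisons (17.6%, 16.9% and 17.5% of all genes). Cs, the citrate synthase that opens the cycle, read 7.26 and 7.78 on the Gli1+ arrays, 7.44, 7.38 and 6.39 on the CD34+ arrays and 8.11, 8.25 and 7.88 on the IFE arrays. IFE arrays lay above all others (CD34+ minus IFE -1.01 ± 0.35, limma adjusted p = 0.152; Gli1+ minus IFE -0.56). Idh2, the mitochondrial NADP-dependent isocitrate dehydrogenase, read 8.89 and 8.87 on the Gli1+ arrays, 9.86, 9.93 and 10.12 on the CD34+ arrays and 9.40, 9.22 and 9.67 on the IFE arrays. The 3 groups did not overlap, with CD34+ cells highest, and Gli1+ minus CD34+ was -1.09 ± 0.29 (limma adjusted p = 0.0919). Idh1, its cytosolic relative, read 10.33 on Gli1+ replicate 2 and 8.60 on Gli1+ replicate 3, either side of all other arrays.

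**Figure D3:**
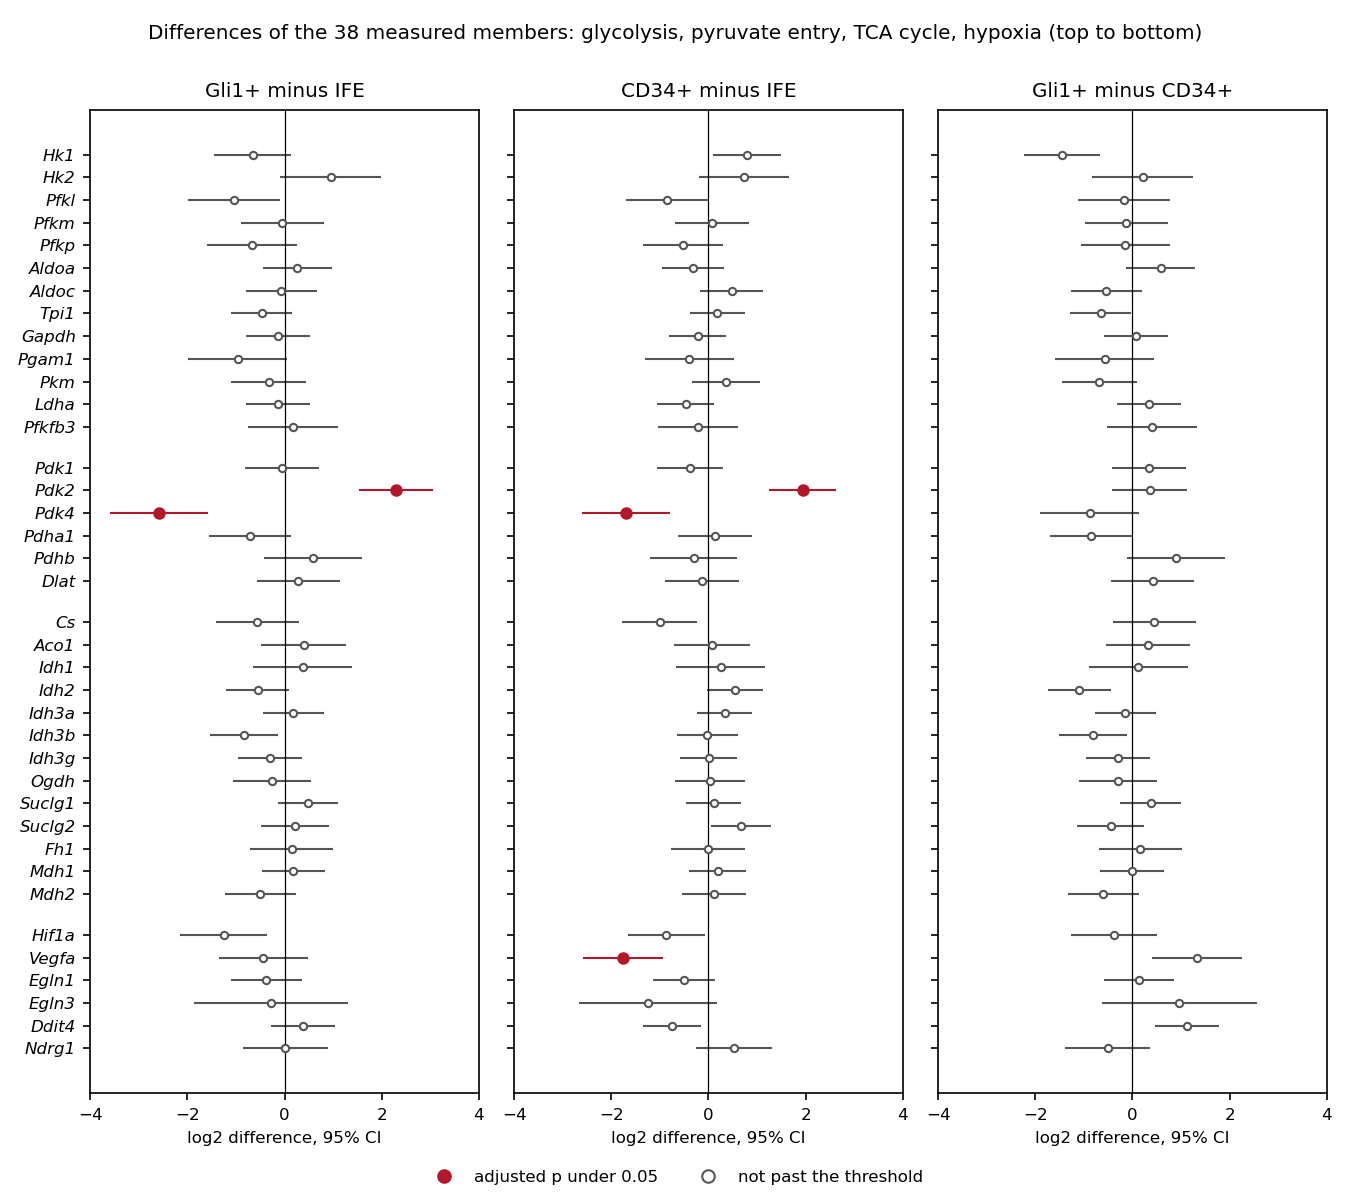
Log2 difference of each of the 38 members in the 3 comparisons, by branch, with bars for the 95% interval; filled points passed limma at adjusted p under 0.05. Only Pdk2, Pdk4 and Vegfa have a filled point, and the Gli1+ against CD34+ panel has none.

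The branches were also described by their medians. For Gli1+ minus IFE the median difference was -0.14 over the glycolytic genes and 0.12 over pyruvate entry. It was 0.15 over the TCA cycle with its isoenzymes and -0.33 over the hypoxia genes, against -0.05 over all genes. The TCA branch holds cytosolic isoenzymes (Aco1 0.39, Idh1 0.37 and Mdh1 0.18). It also holds Idh3a (0.18) and Suclg2 (0.22), which no Gli1+ or IFE array detected. Of its other members, Cs, Idh2, Idh3b, Idh3g, Ogdh and Mdh2 were lower (-0.56, -0.55, -0.83, -0.30, -0.26 and -0.50). Fh1 (0.15) and Suclg1 (0.48) were higher. For CD34+ minus IFE the medians were -0.22, -0.22, 0.11 and -0.81 for the same branches, against -0.01 over all genes. For Gli1+ minus CD34+ they were -0.14, 0.34, -0.15 and 0.55, against -0.05 over all genes. The 95% interval of a single member had a median half-width of 0.80 log2 units in both comparisons with Gli1+ cells and 0.71 in CD34+ minus IFE.

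Differences were also counted without a test. Arrays of the groups did not overlap for 12 of 38 members in Gli1+ against IFE cells, where 31.6% of all genes did not overlap. Of the 12, 4 were higher in Gli1+ cells (13.5% of all genes) and 8 lower (18.0% of all genes). In CD34+ against IFE cells the count was 14 of 38, with 27.7% of all genes, and 5 were higher (13.9% of all genes) and 9 lower (13.7% of all genes). In Gli1+ against CD34+ cells it was 17 of 38, with 31.4% of all genes, and 7 were higher (13.5% of all genes) and 10 lower (17.9% of all genes). A difference of at least 2-fold was seen for 4, 5 and 4 members, where 15.9%, 11.8% and 15.5% of all genes reached it. Within groups, 5 of 38 members (13.2%) spread over more than 1 log2 unit on the Gli1+ arrays, against 31.7% of all genes. In CD34+ cells 5 members did so (13.2%, against 22.3%), and in IFE cells 8 did (21.1%, against 19.3%).

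**Figure D4:**
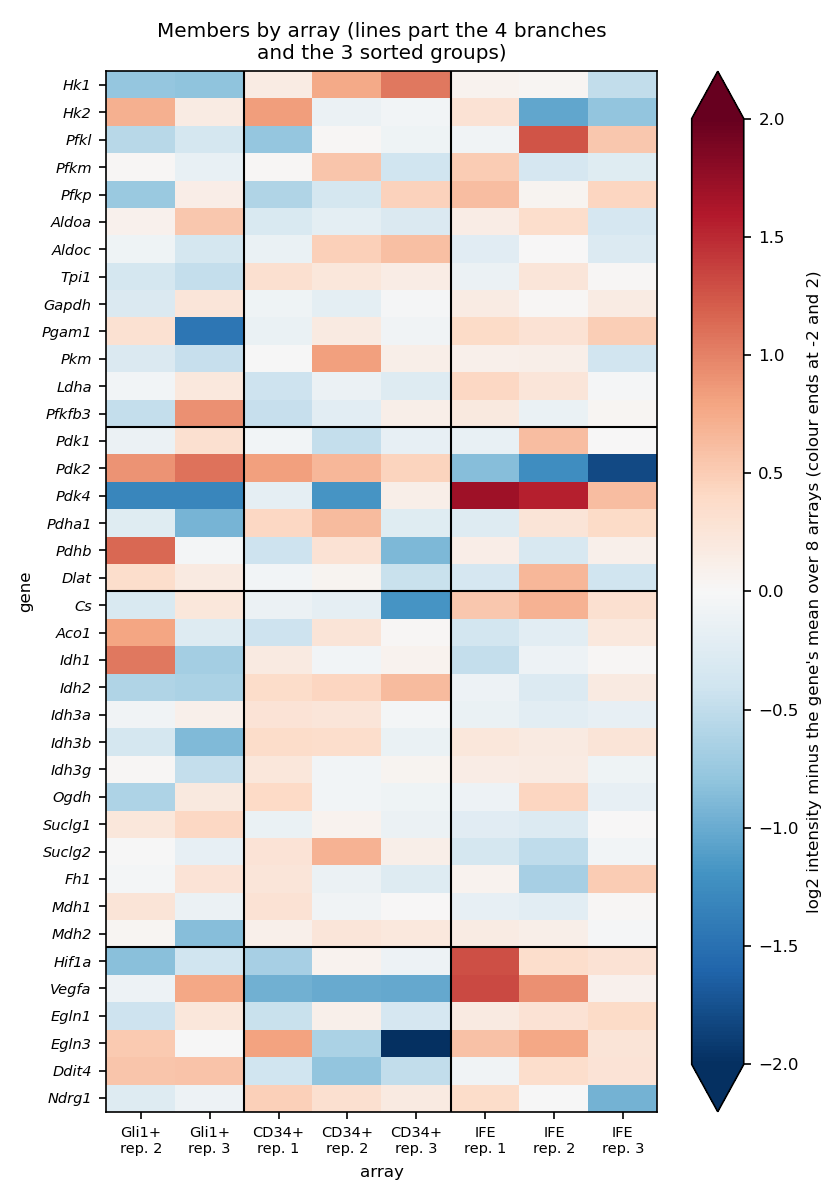
Log2 intensity of the 38 members on the 8 arrays minus each gene's mean over the arrays, with Gli1+, CD34+ and IFE arrays from left to right and genes by branch; colours stop at the ends of the scale. Pdk2 is above its mean on all Gli1+ and CD34+ arrays and below it on all 3 IFE arrays.

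Other genes of the same pathways were read from a list of 84, of which 48 were measured. Of these, 1 passed in each comparison. The shares of all genes that passed were 2.16% in Gli1+ against IFE, 4.80% in CD34+ against IFE and 1.42% in Gli1+ against CD34+ cells. The list's median differences were -0.12 for Gli1+ minus IFE, 0.01 for CD34+ minus IFE and -0.07 for Gli1+ minus CD34+. Me2, the mitochondrial malic enzyme that makes pyruvate from malate, read 5.02 and 4.60 on the Gli1+ arrays, 7.88, 7.38 and 6.71 on the CD34+ arrays and 5.25, 5.36 and 4.95 on the IFE arrays. The CD34+ arrays stood clear of both other groups. Me2 was 4.40-fold higher in CD34+ than in IFE cells (2.14 ± 0.34, limma adjusted p = 0.00668) and at least 3.63-fold lower in Gli1+ than in CD34+ cells (limma adjusted p = 0.0235). Its probe was detected on 4 of 8 arrays, 3 of them CD34+, and so passed the detection filter through the group where it was high. Me2 dropped out of the alternative that asked for detection on at least 5 arrays. In the others, the call against IFE cells passed in 18 of 18 and the call against CD34+ cells in 10 of 18. That call was lost with the replicate block (0.0711), with only Gli1+ and CD34+ arrays fitted (0.125), with array weights (0.178), without any one CD34+ array (0.0704 to 0.0978) and without IFE replicate 2 (0.0574) or 3 (0.052). The probe was detected on neither Gli1+ array and on 1 of 3 IFE arrays, and Gli1+ against IFE cells did not pass (limma adjusted p = 0.662).

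Pfkfb4, which sets the level of the phosphofructokinase activator fructose 2,6-bisphosphate, read 6.99 and 7.74 on the Gli1+ arrays, 5.90, 7.53 and 7.10 on the CD34+ arrays and 4.95, 5.34 and 5.29 on the IFE arrays. Every Gli1+ and CD34+ array was above every IFE array. It was 4.50-fold higher in Gli1+ than in IFE cells (2.17 ± 0.47, limma adjusted p = 0.0494). The replicate block removed this call (0.109), which passed in 6 of 19 alternatives. Adjusted over all probes instead of genes, its limma adjusted p was 0.0517. The probe was detected on 2 of 3 IFE arrays, with values near their detection limit, and the other Pfkfb4 probe was detected on no array. CD34+ minus IFE was 1.65 ± 0.42 (limma adjusted p = 0.0596). The 20 measured hypoxia genes of this list had none past the threshold, with medians of -0.16, -0.19 and -0.01 in the 3 comparisons. The 9 glycolytic, 7 pyruvate entry, 9 TCA cycle and 4 pentose phosphate genes measured held no call other than Pfkfb4 and Me2.

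Markers of other cell types that the gate could hold were read beside the calls. Of 12 fibroblast markers 5 were measured, namely Col1a2, Col6a1, Sparc, Thy1 and Alx4. Col1a1, Col3a1, Pdgfra, Dcn, Lum, Vim and Corin had probes that did not pass the detection filter. The summed level of those 5, on a linear scale, was between 1244 and 1544 in Gli1+ cells, between 2465 and 3115 in CD34+ cells, and between 1478 and 1918 in IFE cells. Of those 5, 3 passed as higher in CD34+ than in IFE cells and 2 as lower in Gli1+ than in CD34+ cells, the same groups between which Me2 differed. None of 5 skeletal muscle markers was measured. Langerhans cell and macrophage markers, with 5 of 8 measured, had a summed level between 1017 and 1386 in Gli1+ cells, between 577 and 686 in CD34+ cells, and between 377 and 584 in IFE cells. T cell markers, with 5 of 7 measured, had a summed level between 902 and 1485 in Gli1+ cells, between 1159 and 1572 in CD34+ cells, and between 1427 and 1880 in IFE cells. Melanocyte markers, with 3 of 7 measured, had a summed level between 196 and 371 in Gli1+ cells, between 316 and 421 in CD34+ cells, and between 99 and 127 in IFE cells. Mitf, Pmel and Mlana were measured, while Dct, Tyr and Tyrp1 had probes that did not pass the detection filter. Among the 3, 1 passed as higher in Gli1+ than in IFE cells and 1 in CD34+ than in IFE cells, as Pdk2 was. Schwann cell markers, with 2 of 5 measured, had none past the threshold. Their summed level was between 129 and 536 in Gli1+ cells, between 106 and 173 in CD34+ cells, and between 286 and 417 in IFE cells. Of the red blood cell markers 1 of 3 was measured, Hba-a1, with a level between 90 and 289 in Gli1+ cells, between 40 and 52 in CD34+ cells, and between 29 and 34 in IFE cells, and it passed as higher in Gli1+ than in IFE cells. The part of any of these cells in the values of the members was not tested.

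**Figure D5:**
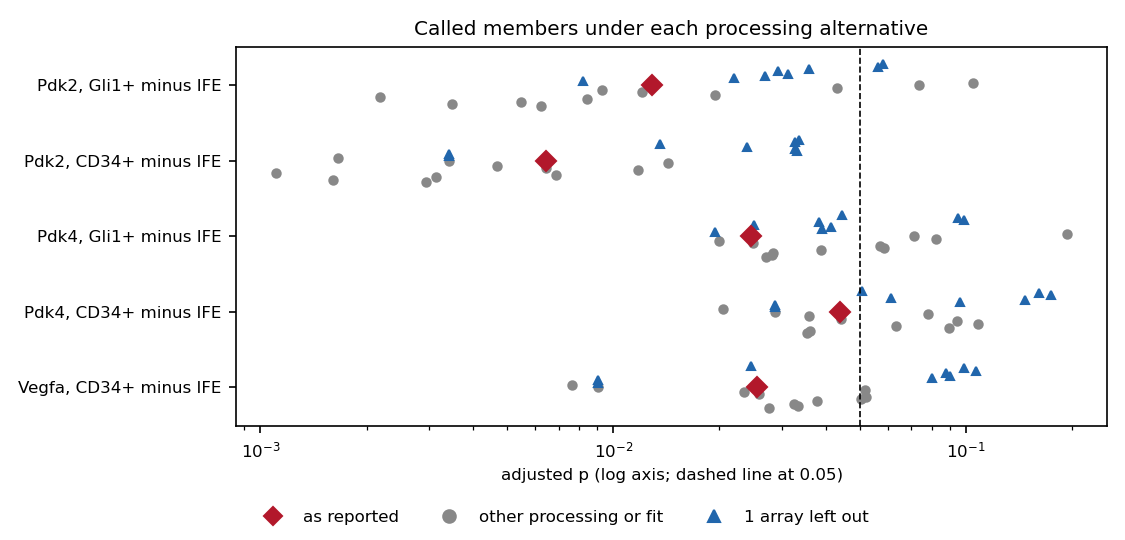
Adjusted p in limma (log axis, dashed line at 0.05) of each called member and comparison, as reported (diamond), under other processing or fits (circles) and with 1 array left out (triangles); the height of a point within its row only separates points. Pdk2 passed in 19 of 19 alternatives for CD34+ against IFE cells and in 15 of 19 for Gli1+ against IFE cells, while Pdk4 and Vegfa have points on both sides of the line.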

How the data were processed

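The 8 samples were each hybridised to 1 Illumina MouseRef-8 bead array. Per the labels' protocols, Trizol was used for extraction and NuGEN Ovation Pico for labelling, and the submitters' processing notes name GenomeStudio 2010.3. The deposited matrix gives for each probe, per the file headers, a detection p-value, a bead count, an intensity and its standard error over beads (a signal column), before any background correction or normalisation. The authors' deposited table of log2 values equals the log2 of these intensities within 5.5e-05 and served as an alternative. Files give no genome build.

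Of 25697 probes, 23978 carried 1 symbol, 0 several and 1719 none, and 23962 matched RefSeq by Entrez identifier. In R 4.3.3, neqc of limma 3.58.1 (offset 16) corrected and quantile normalised the intensities, inferring negative controls from the detection p-values. A probe was kept if 2 or more arrays detected it at p under 0.05 (14252, of which 13361 carry a gene), and the brightest probe of each of 9545 genes was used. All 8 arrays were fitted together with 1 mean per group (5 residual and 4.84 prior degrees of freedom), tested two-sided and adjusted by Benjamini-Hochberg over all genes. A fold is a bound where no array of the dimmer group and every array of the brighter group detected the probe. It is taken against the lowest detected value of the dimmer group's arrays, or the probe's own value where higher. Such a bound compares group means and makes no allowance for the spread between arrays. The method was tested on simulated data with independent noise of the same spread in all groups. That test does not cover noisier Gli1+ arrays, shared mice or the detection limit. Arrays give no counts, so their number limits the precision.

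Members and lists were chosen with earlier results of these data known. Values on every array are given for members past the threshold, for the 2 others per branch with the largest difference and for a fixed set of genes. Same-numbered samples came from the same pool of mice, per the series design, and their deviations from group means correlated between -0.031 and 0.091. Alternatives covered background correction, normalisation, filters, probe choice, the replicate block, the samples fitted, array weights and each array left out.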

Additional observations from a re-analysis of the deposited data

How the results depend on the processing

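Called differences of the genes named above kept their direction in every alternative run (19, or 18 for Me2). Over 57 gene and comparison pairs (1080 values), 1015 kept their side of the threshold, and the 23 changes of sign were in differences past no threshold. Members past the threshold in Gli1+ against IFE cells numbered 2, but 1 with the deposited log2 values, with no detection filter or with the replicate block, and 0 when only the 2 groups were fitted or with array weights. Leaving out 1 array gave 0 to 3, with 0 without IFE replicate 2 and 3 without Gli1+ replicate 2, where Pgam1 was added. In CD34+ against IFE cells they numbered 3, but 1 with the deposited log2 values, with no detection filter or with the replicate block, 2 with median centring or cyclic loess (Pdk4 lost), 4 with no background correction (Ddit4 added) and 1 to 3 with 1 array left out. In Gli1+ against CD34+ cells they numbered 0, but 2 with a normexp offset of 50 or no background correction (Ddit4 and Idh2), 1 with no detection filter (Idh2) and 0 to 2 with 1 array left out (Pgam1 and Vegfa, without Gli1+ replicate 2). The share of all genes past the threshold moved too: in Gli1+ against IFE cells, 2.16% as reported became 12.9% without Gli1+ replicate 2, 0.524% without IFE replicate 2, 0.409% without IFE replicate 3 and 0.0314% with array weights. In CD34+ against IFE cells, 4.80% became 1.98% without IFE replicate 3 and 9.29% with array weights. In Gli1+ against CD34+ cells, 1.42% became 12.5% without Gli1+ replicate 2 and 0.0105% (1 gene) with the replicate block, only those groups fitted or array weights. The cause of these changes was not tested. The deposited values still hold background and gave smaller differences, such as -0.73 for Pdk4 in CD34+ minus IFE cells.

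The replicate block, which pairs samples of the same mice, changed the calls given above for Pdk4, Vegfa, Me2 and Pfkfb4 and no other call among the genes named. Adjusted p over the 19 alternatives ran from 0.00219 to 0.105 for Pdk2 and 0.0194 to 0.194 for Pdk4 in Gli1+ against IFE cells. In CD34+ against IFE cells it ran from 0.0011 to 0.0337 for Pdk2, 0.0205 to 0.174 for Pdk4 and 0.00764 to 0.107 for Vegfa. The fit of all arrays shares 1 estimate of the spread across the 3 groups, so Gli1+ arrays are assumed to vary like the others. Without a Gli1+ array, the spread of the lone Gli1+ array rests on the other groups alone. With only Gli1+ and IFE arrays fitted, 0.0629% of all genes passed in that comparison, against 2.16% with all arrays fitted. Centring on the median moved the median difference of all genes to 0.096 for Gli1+ minus IFE and 0.126 for CD34+ minus IFE. A block for the BeadChip was not run, since the file headers give no chip. The detection limit on the Gli1+ arrays leaves only bounds there for Pdk4 against IFE cells and for Hk1 and Me2 against CD34+ cells.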

Other observations

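Several members had probes that differed, as seen in values past no threshold. Pfkm had Gli1+ minus IFE differences of -0.05, 0.78 and 0.36 on its 3 probes, and CD34+ minus IFE differences of 0.08, 0.68 and 1.23. Suclg1, a subunit of succinyl-CoA ligase, had Gli1+ minus IFE differences of 0.48 on the brightest probe, and 0.10 and 1.10 on its other probes. On the probe with 1.10, Gli1+ replicate 2 read 8.02 and Gli1+ replicate 3 read 6.19, and Gli1+ and IFE arrays overlapped. Pgam1, the phosphoglycerate mutase of glycolysis, read 6.97 on Gli1+ replicate 2 and 5.22 on Gli1+ replicate 3, with CD34+ arrays between 6.54 and 6.85 and IFE arrays between 6.96 and 7.16. Gli1+ replicate 3 lacked 946 probes that all 7 other arrays detected, against 245 for Gli1+ replicate 2.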
